A study of Mus musculus with 9 samples.

Results

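The p53 network was described through 33 of the 47729 genes listed in the count files, chosen by symbol and sorted here by role. Of these, 6 were p53 itself and its feedback partners, 9 arrest and antiproliferative genes, 13 cell death genes and 5 repair and detoxification genes. Messenger RNA came from cultured skeletal muscle myoblasts of FVB/N mice, an inbred strain. There were 3 libraries each of SRCs of cycle 3 (SRC3), FRCs of cycle 1 (FRC1) and the parental population (Parental, PAR), 9 in all, with no transgene, deletion or drug named for any group. Both reserve populations, SRC3 and FRC1, were grown on in proliferation conditions and passaged after their isolation, so none of the libraries shows freshly isolated reserve cells. The SRC libraries were all of cycle 3 and the FRC libraries all of cycle 1, so population and cycle cannot be told apart. The labels do not say whether libraries of a group came from separate cultures. The p-values then measure only the spread between these libraries, which may be technical.

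Gene counts came to between 13012996 and 14336279 per library. Levels are given as CPM, the count of a gene scaled to the library's total gene count after TMM normalization. At this depth 3 counts correspond to 0.209 to 0.231 CPM. The myoblast genes Myod1, Pax7 and Des were detected in every library, with Myod1 at 539.6 ± 18.8 CPM in SRC3, 770.8 ± 15.9 in FRC1 and 776.5 ± 15.1 in PAR (SD, n = 3 each), while Myf5, another myogenic regulator, was at 0 in FRC1 and PAR. Summed over 8 myoblast markers, levels were 1978 to 2193 CPM in SRC3, 2795 to 2900 in FRC1 and 3009 to 3089 in PAR. Of the 7 tested, 6 were lower in SRC3 and 3 in FRC1 than in PAR, against 20.2 and 14.7% of all tested genes. Markers of differentiated myotubes summed to 13.5 to 31.9 CPM in SRC3, 96.6 to 122 in FRC1 and 11.5 to 14.6 in PAR. Of the 8 tested, 7 were higher in FRC1 than in PAR, against 13.6% of all tested genes. In SRC3 against PAR, 4 were higher and 1 was lower, against 17.8 and 20.2% of all tested genes. Fibroblast markers summed to 276 to 302 CPM in SRC3, 285 to 399 in FRC1 and 557 to 587 in PAR. Nearly all of this was Col3a1, at means of 279.1, 332.7 and 561.1 CPM, while Dcn, Lum, Dpt and Pi16 were near 0. Pericyte and smooth muscle markers summed to 8.72 to 10.2 CPM in SRC3, 35.9 to 64.0 in FRC1 and 17.3 to 21.1 in PAR. Nearly all of this was Mcam, at means of 8.89, 51.2 and 19.0 CPM. Neither sum therefore reflects its marker set as a whole. Summed levels reached at most 0.560 CPM for endothelial, 0.608 for adipocyte, 4.40 for immune and 7.68 for glial markers in any library. These marker levels moved with the groups compared below, and their part in the p53 results was not tested.

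The transcription factor p53, encoded by Trp53 in the mouse, is held at a low level by Mdm2, which marks it for degradation, and by Mdm4, which blocks its activity. DNA damage and other stresses release it from this control. Since p53 is regulated mainly through the stability and modification of its protein, its target genes are commonly read as a measure of its activity. In myoblasts p53 has been described as acting on proliferation, quiescence and the entry into differentiation. Its targets include Cdkn1a, whose product p21 inhibits cyclin-dependent kinases, the death genes Bax, Bbc3 and Pmaip1, and Mdm2 itself, which closes a negative feedback loop.

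The DNA element that p53 binds is a pair of similar decamers. Promoter windows were taken from RefSeq (GRCm38.p6), from 250 bases before to 50 bases after the start, and 26 of the 33 genes had a window. The other 7 were Pmaip1, Perp, Xpc, Rrm2b, Trp53inp1, Ddb2 and Zmat3. The p53 decamer consensus, which reads the same on both strands, was matched in 12 of the 26 genes, against 9.55% of all 27025 genes with a window. A pair of decamers, with at most 2 mismatches and at most 1 base between them, was matched in 5, which were Cdkn1a, Ccng1, Gtse1, Bax and Ckap2, against 0.807% of all genes. The central C and G of each decamer had to match. A match describes these letters and is not evidence of binding. The 33 genes were chosen as p53 network genes, so their shares of matches only describe them beside all genes. The stretches below show those 5 pairs, each of which can be set beside the levels of its gene. Of the genes with a decamer but no pair, only Mdm2, the feedback gene, is shown. The others were Trp53, Aen, Ei24, Gadd45a, Sesn1 and Polk, whose decamers are not printed. Gtse1 held a second matched pair, which shares its first decamer with the last decamer of the pair shown and is not printed. The stretches are written 5′ to 3′ on the strand of the gene. Capitals mark the whole matched site, with its mismatched letters and any base between the decamers. There was 1 mismatch in the pairs of Cdkn1a, Ccng1 and Gtse1 and 2 in those of Bax and Ckap2, and 0 in the Mdm2 decamer. Only the Bax pair shown has 1 base between its decamers.
Cdkn1a: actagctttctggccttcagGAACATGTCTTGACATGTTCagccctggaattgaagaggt
Ccng1: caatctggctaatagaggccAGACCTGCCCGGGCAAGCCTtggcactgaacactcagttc
Gtse1: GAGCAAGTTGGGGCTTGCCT
Bax: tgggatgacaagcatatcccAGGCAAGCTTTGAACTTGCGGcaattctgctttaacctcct
Ckap2: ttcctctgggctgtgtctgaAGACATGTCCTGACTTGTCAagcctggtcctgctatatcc
Mdm2: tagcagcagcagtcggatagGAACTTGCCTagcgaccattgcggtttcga
The Cdkn1a stretch lies at chr17:29090908-29090967 on the plus strand and the Gtse1 pair at chr15:85859945-85859964 on the plus strand. The others lie on the minus strand, Ccng1 at chr11:40755442-40755501, Bax at chr7:45467059-45467119, Ckap2 at chr8:22185983-22186042 and Mdm2 at chr10:117710915-117710964.

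Most of the network genes that passed the test in SRC3 against PAR were lower in SRC3, and most of those that passed in FRC1 against PAR were lower in FRC1. With edgeR's quasi-likelihood test and an adjusted p threshold of 0.05, 31 of the 33 genes had enough counts to be tested, each with at least 21 counts in every library. Fas and Perp had too few. In SRC3 against PAR, 4 genes were higher, 15 were lower and 12 did not pass, a share of 61.3% called against a background of 37.9% of the 12540 genes tested (17.8% higher and 20.2% lower). In 22 of the 31 tested the libraries of the groups did not overlap, against a background of 49.1% of all tested genes. In FRC1 against PAR, 3 were higher, 12 were lower and 16 did not pass, 48.4% against a background of 28.3% (13.6% higher and 14.7% lower), and 19 did not overlap against a background of 44.2%. Both comparisons share the PAR libraries. In SRC3 against FRC1, 5 were higher, 11 were lower and 15 did not pass, 51.6% against a background of 33.5% (15.5% higher, the rest lower), and 18 did not overlap against a background of 42.8%. The median log2 fold change of the tested members was -0.18, -0.17 and -0.01 in these comparisons, and that of all tested genes was 0.01, 0.00 and 0.00. The members and the other gene lists below were chosen with earlier results of these data known. Their shares beside the background are therefore descriptive and do not test the network as a set. In bulk RNA, fewer cells of a kind and less RNA per cell cannot be told apart.

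**Figure D1:**
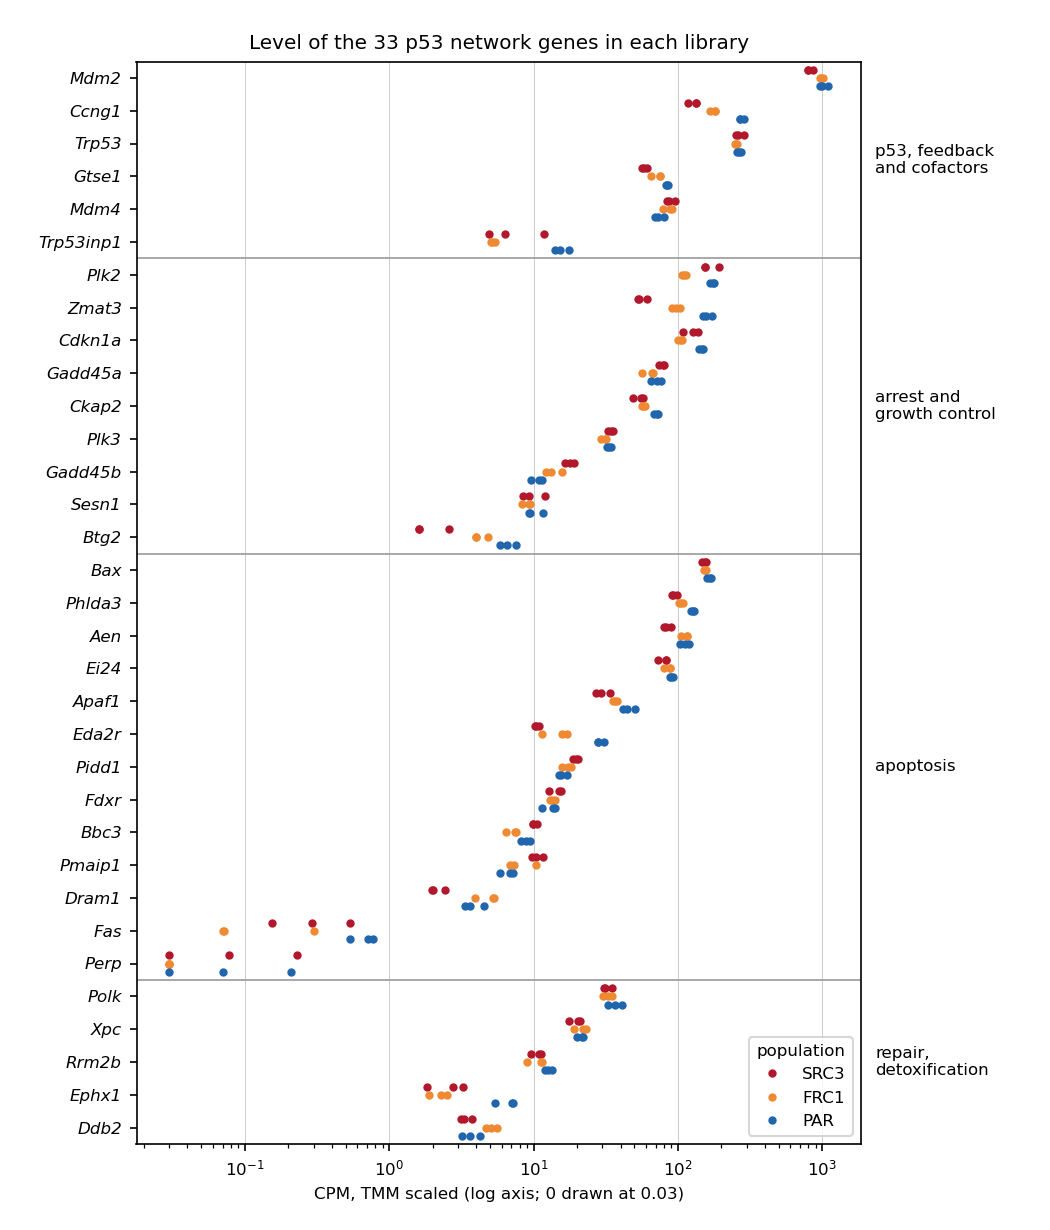
Level of each of the 33 genes in every library, in CPM on a log axis, with SRC3, FRC1 and PAR side by side and genes ordered by role; libraries with 0 counts are drawn at 0.03. Zmat3, Ccng1, Eda2r and Btg2 lie in separate ranges in SRC3, FRC1 and PAR, while Trp53 overlaps in all 3 groups.

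Trp53 (ENSMUSG00000059552, chr11:69580359-69591873, GRCm38), the gene of p53, had 251.8, 286.1 and 260.9 CPM in SRC3, 255.0, 248.2 and 252.1 in FRC1 and 272.8, 263.9 and 254.8 in PAR. The ranges of all 3 groups overlapped. The log2 fold change was 0.01 ± 0.05 (SE) in SRC3 against PAR and -0.07 ± 0.05 in FRC1 against PAR, with edgeR adjusted p of 0.86 and 0.35. SRC3 against FRC1 gave 0.08 ± 0.05 with adjusted p of 0.24. Trp53 thus passed in no comparison, and protein was not measured.

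Mdm2 (ENSMUSG00000020184, chr10:117688875-117710758), the ubiquitin ligase of p53, had 800.1, 798.0 and 856.9 CPM in SRC3, 980.0, 1009 and 969.8 in FRC1 and 993.3, 964.4 and 1097 in PAR. Every SRC3 library lay below every FRC1 and PAR library, and FRC1 and PAR overlapped. Mdm2 fell 1.24-fold in SRC3 against PAR, with a log2 fold change of -0.32 ± 0.05 and an edgeR adjusted p of 4.6e-05. The log2 fold change of FRC1 against PAR was -0.05 with adjusted p of 0.53. SRC3 against FRC1 gave -0.27, with adjusted p of 2.8e-04. Mdm4, the related inhibitor, was higher in both reserve populations than in PAR, at 88.7 ± 6.17 CPM in SRC3, 86.3 ± 6.16 in FRC1 and 74.0 ± 5.19 in PAR. Its log2 fold change was 0.26 in SRC3 and 0.22 in FRC1 against PAR (adjusted p 0.0045 and 0.019). The FRC1 call was lost without FRC1 replicate 2 or 3 or PAR replicate 1 or 2, with adjusted p up to 0.11.

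Ccng1 (chr11:40748552-40755311), which encodes cyclin G1, a target of p53 that takes part in its regulation through Mdm2, had 134.1, 116.9 and 132.9 CPM in SRC3, 179.8, 181.4 and 167.1 in FRC1 and 270.0, 269.1 and 285.3 in PAR. The 3 groups did not overlap, with SRC3 lowest and PAR highest. Ccng1 was 2.15-fold lower in SRC3 than in PAR (log2 fold change -1.10 ± 0.06, edgeR adjusted p 4.7e-12) and 1.56-fold lower in FRC1 than in PAR (adjusted p 1.3e-07). SRC3 was also 1.38-fold below FRC1, with adjusted p of 2.5e-06. Gtse1, a cell cycle gene whose product restrains p53, stood in the same order, at 58.5 ± 2.31 CPM in SRC3, 71.7 ± 5.52 in FRC1 and 83.7 ± 1.95 in PAR. It was called lower in all 3 comparisons, with log2 fold changes of -0.52, -0.22 and -0.29. The FRC1 call against PAR was lost without FRC1 replicate 2 (adjusted p 0.059).

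Trp53inp1, a stress-induced p53 partner linked to arrest, death and autophagy, had 6.31, 4.94 and 11.8 CPM in SRC3, 5.15, 5.11 and 5.42 in FRC1 and 15.1, 14.2 and 17.6 in PAR. All PAR libraries lay above all reserve cell libraries, and SRC3 and FRC1 overlapped. SRC3 replicate 3 was the highest reserve cell library by a wide margin. The gene was 2.04-fold lower in SRC3 than in PAR (adjusted p 0.0065) and 2.99-fold lower in FRC1 than in PAR (adjusted p 0.0011). SRC3 against FRC1 gave a log2 fold change of 0.55 ± 0.28 with adjusted p of 0.16, which passed without the filter (0.0038), with DESeq2 (0.048), with a replicate block (0.041) and without SRC3 replicate 2 (0.011). Without SRC3 replicate 3 that log2 fold change was 0.11 with adjusted p of 0.68. Of the 6 feedback genes, SRC3 against PAR had 1 higher and 4 lower, FRC1 against PAR had 1 higher and 3 lower, and SRC3 against FRC1 had 0 higher and 3 lower. These were shares of 83.3, 66.7 and 50%, against 37.9, 28.3 and 33.5% of all tested genes.

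**Figure D2:**
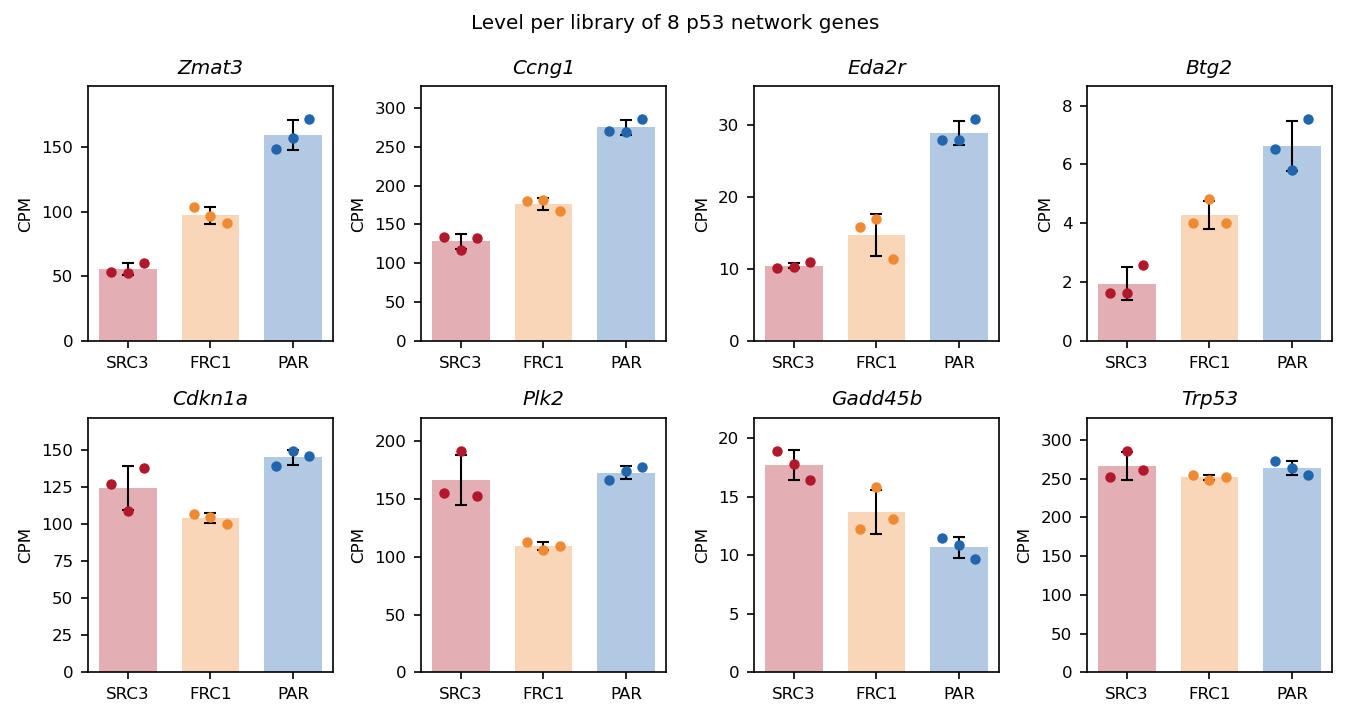
CPM of selected genes in each library, with SRC3 left, FRC1 in the middle and PAR right; points are libraries, bars give the group mean and error bars the SD (n = 3). Ccng1 and Zmat3 form 3 separate levels, and every FRC1 library of Plk2 lies below the SRC3 and PAR libraries.

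Among the arrest genes, Cdkn1a was lowest in FRC1. Cdkn1a (chr17:29090976-29100727) had 127.4, 108.8 and 138.2 CPM in SRC3, 107.2, 105.3 and 100.5 in FRC1 and 139.8, 149.8 and 146.3 in PAR. The 3 groups did not overlap, although the highest SRC3 library came close to the lowest PAR library. FRC1 was 1.39-fold lower than PAR (log2 fold change -0.48 ± 0.07, edgeR adjusted p 4.2e-05), and SRC3 was 1.20-fold higher than FRC1 (adjusted p 0.0064). The fall in SRC3 against PAR was smaller, with a log2 fold change of -0.22 and adjusted p of 0.015. That call was lost without SRC3 replicate 2 (0.092), PAR replicate 2 (0.07) or PAR replicate 3 (0.055).

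Zmat3 (chr3:32334792-32366014), a p53-induced zinc finger gene whose RNA-binding product acts in growth suppression, had the lowest adjusted p of the network in SRC3 against PAR. Its levels were 53.7, 52.7 and 60.7 CPM in SRC3, 104, 96.6 and 91.01 in FRC1 and 149, 157 and 172 in PAR. The groups did not overlap, and SRC3 was lowest. SRC3 was 2.86-fold below PAR (log2 fold change -1.51 ± 0.07, edgeR adjusted p 7.0e-13) and 1.74-fold below FRC1 (adjusted p 2.0e-08). FRC1 was 1.64-fold below PAR, with adjusted p of 2.2e-07.

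Btg2 (chr1:134075170-134079120), an antiproliferative cofactor of mRNA deadenylation, was a gene of low level. It had 1.61, 1.62 and 2.58 CPM in SRC3, 4.02, 4.83 and 3.99 in FRC1 and 6.51, 5.82 and 7.53 in PAR. These ranges were again separate and in the order seen for Zmat3. SRC3 was 3.41-fold lower than PAR, the largest fall among the tested members in that comparison (adjusted p 7.3e-07), and 2.21-fold lower than FRC1 (adjusted p 3.4e-04). FRC1 was 1.55-fold lower than PAR with adjusted p of 0.01, a call lost without FRC1 replicate 3 (0.051) or PAR replicate 3 (0.065). Ckap2, a spindle-associated gene also described as p53-responsive, was lower in SRC3 at 53.9 ± 4.23 CPM and in FRC1 at 57.6 ± 1.30, against 70.6 ± 1.98 in PAR (adjusted p 4.9e-05 and 0.0014).

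Plk2 (chr13:110395046-110400844), a polo-like kinase gene induced by p53, differed between the reserve populations. It had 155.0, 191.8 and 153.0 CPM in SRC3, 113.2, 106.0 and 109.6 in FRC1 and 166.6, 174.3 and 177.7 in PAR. Every FRC1 library lay below every other library, and SRC3 overlapped PAR. FRC1 was 1.58-fold below PAR (adjusted p 4.8e-06), and SRC3 was 1.52-fold above FRC1 (adjusted p 4.6e-06). In SRC3 against PAR the log2 fold change was -0.05 with adjusted p of 0.58, and without SRC3 replicate 2 it was -0.16 with adjusted p of 0.021.

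Gadd45b (chr10:80930073-80932204), a stress gene of the growth arrest and DNA damage family, was higher in both reserve populations. It had 18.9, 17.8 and 16.4 CPM in SRC3, 12.2, 15.8 and 13.1 in FRC1 and 11.5, 10.9 and 9.67 in PAR. No group overlapped another, and SRC3 was highest. SRC3 was 1.66-fold above PAR (adjusted p 3.7e-05). FRC1 was 1.29-fold above PAR (adjusted p 0.026), a call lost with DESeq2 (0.0505) and without FRC1 replicate 2 (0.17), PAR replicate 2 (0.058) or PAR replicate 3 (0.12). SRC3 was 1.29-fold above FRC1 (adjusted p 0.014), a call lost without FRC1 replicate 1 (0.064), FRC1 replicate 3 (0.0528) or SRC3 replicate 1 (0.065). Its relative Gadd45a was at 77.8 ± 3.79 CPM in SRC3, 63.4 ± 5.79 in FRC1 and 70.8 ± 5.59 in PAR, and only SRC3 against FRC1 passed (1.23-fold higher, adjusted p 0.003). Exons of Gadd45a overlap the opposite-strand gene E230016M11Rik over 19.1% of their length, and without the strand setting of the counting these reads cannot be told apart.

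Sesn1, a stress-induced sestrin gene, was at 9.90 ± 1.80 CPM in SRC3, 8.99 ± 0.648 in FRC1 and 10.2 ± 1.32 in PAR and passed in no comparison. Plk3, another polo-like kinase gene, was at 34.3 ± 1.33, 30.8 ± 1.48 and 33.4 ± 1.20 CPM in the same groups and also passed in none. Of the 9 arrest genes, SRC3 against PAR had 1 higher and 4 lower, and FRC1 against PAR had 1 higher and 5 lower. In SRC3 against FRC1, 4 were higher (Cdkn1a, Plk2, Gadd45a and Gadd45b) and 2 were lower (Zmat3 and Btg2). Over these comparisons 55.6, 66.7 and 66.7% of the arrest genes were called, against 37.9, 28.3 and 33.5% of all tested genes.

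**Figure D3:**
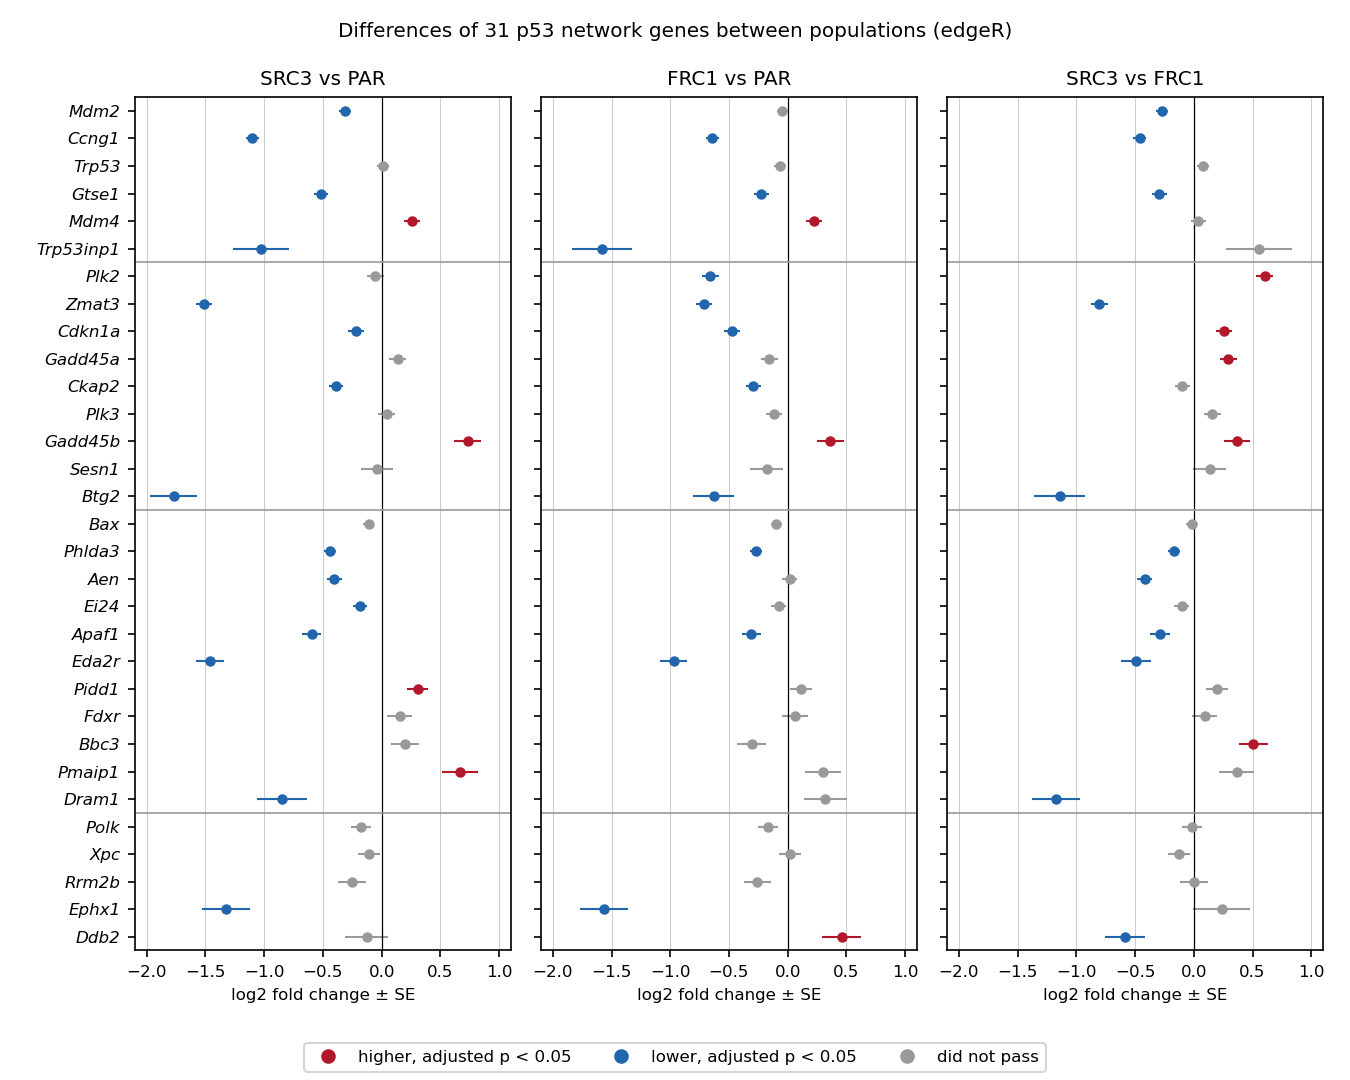
Log2 fold change of the 31 tested genes in SRC3 against PAR, FRC1 against PAR and SRC3 against FRC1, with bars of 1 standard error; red points were higher and blue points lower with adjusted p under 0.05, and grey points did not pass. Zmat3, Btg2 and Eda2r lie far to the left in SRC3 against PAR, and Gadd45b and Pmaip1 to the right.

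Death genes moved in both directions in SRC3 against PAR, where 2 of the 11 tested were higher and 6 were lower. This was a share of 72.7% called, against 37.9% of all tested genes. The effector Bax, which permeabilises the mitochondrial outer membrane, had 153.1, 157.4 and 146.8 CPM in SRC3, 153.1, 156.2 and 152.3 in FRC1 and 158.4, 166.6 and 168.9 in PAR. Both reserve populations lay below PAR without overlap, but the differences were small. The log2 fold change was -0.11 ± 0.05 in SRC3 and -0.10 ± 0.05 in FRC1 against PAR, with edgeR adjusted p of 0.078 and 0.14.

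Pmaip1 and Bbc3 are BH3-only genes, whose products act upstream of Bax. Pmaip1, which encodes Noxa, had 11.6, 9.72 and 10.3 CPM in SRC3, 6.82, 10.4 and 7.34 in FRC1 and 7.21, 5.90 and 6.82 in PAR. SRC3 lay wholly above PAR, and FRC1 overlapped both. Pmaip1 was 1.59-fold higher in SRC3 than in PAR (adjusted p 0.0017). The comparison of SRC3 with FRC1 gave a log2 fold change of 0.36 and adjusted p of 0.064, which passed without the filter (0.042) and without FRC1 replicate 2 (0.0043) or SRC3 replicate 2 (0.043). Bbc3, which encodes Puma, was at 10.1 ± 0.439 CPM in SRC3, 7.14 ± 0.631 in FRC1 and 8.83 ± 0.615 in PAR. It was 1.42-fold higher in SRC3 than in FRC1 (adjusted p 0.0031), while its comparisons with PAR gave adjusted p of 0.2 for SRC3 and 0.073 for FRC1.

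The receptor genes were low. Eda2r (chrX:97333840-97377216), a receptor of the tumour necrosis factor receptor family for ectodysplasin A2, had 10.2, 10.3 and 10.95 CPM in SRC3, 15.8, 17.0 and 11.4 in FRC1 and 28.0, 27.95 and 30.8 in PAR. The groups did not overlap, and FRC1 replicate 3 was close to the SRC3 libraries. SRC3 was 2.76-fold below PAR (adjusted p 4.8e-09), FRC1 was 1.96-fold below PAR (adjusted p 3.0e-06), and SRC3 was 1.41-fold below FRC1 (adjusted p 0.0051). Fas, a death receptor, had 13 counts in all in SRC3, 6 in FRC1 and 28 in PAR. In a fit without the filter the log2 fold change of Fas was -1.03 in SRC3 against PAR and -2.15 in FRC1 against PAR, with adjusted p of 0.21 and 0.0083. Perp, a membrane protein gene of p53-dependent death, had 4 counts in SRC3, 0 in FRC1 and 4 in PAR, at the limit of detection.

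Dram1, a lysosomal gene that links p53 to autophagy, had 1.98, 2.01 and 2.43 CPM in SRC3, 5.23, 5.32 and 3.92 in FRC1 and 4.55, 3.37 and 3.63 in PAR. SRC3 lay below both other groups, which overlapped each other. It was 2.25-fold below FRC1 (adjusted p 1.5e-04) and 1.80-fold below PAR (adjusted p 0.0034), and FRC1 against PAR gave a log2 fold change of 0.32 with adjusted p of 0.21. Aen, a p53-induced nuclease gene, showed the same arrangement at higher levels, with 84.1 ± 4.72 CPM in SRC3, 112.4 ± 6.86 in FRC1 and 111.2 ± 7.39 in PAR. Aen was 1.32-fold lower in SRC3 than in PAR and 1.34-fold lower than in FRC1 (adjusted p 3.7e-05 and 2.7e-05).

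Apaf1, the scaffold of the apoptosome, had 29.1, 27.15 and 33.7 CPM in SRC3, 36.6, 37.7 and 35.35 in FRC1 and 41.5, 44.4 and 50.2 in PAR. The groups were separate, with SRC3 lowest. Apaf1 was 1.51-fold lower in SRC3 than in PAR (adjusted p 1.1e-05). It was also called lower in FRC1 against PAR (0.0079), a call lost without PAR replicate 3 (0.065), and in SRC3 against FRC1 (0.014), a call lost without FRC1 replicate 2 or SRC3 replicate 1 or 2. Phlda3, which inhibits Akt, was at 93.7 ± 3.63 CPM in SRC3, 105.3 ± 4.12 in FRC1 and 126.9 ± 3.38 in PAR. It was 1.35-fold lower in SRC3 than in PAR (adjusted p 1.5e-06) and 1.20-fold lower in FRC1 than in PAR (adjusted p 6.9e-04). Its call in SRC3 against FRC1 (0.018) was lost without FRC1 replicate 1 or 2 or SRC3 replicate 1.

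Ei24, an endoplasmic reticulum gene, was at 79.4 ± 5.91 CPM in SRC3, 85.3 ± 4.59 in FRC1 and 90.1 ± 2.26 in PAR. It was called lower in SRC3 against PAR (adjusted p 0.024), and leaving out any PAR library or SRC3 replicate 2 ended that call. Pidd1, a death domain gene of the caspase-2 platform, was higher in SRC3 at 19.5 ± 0.820 CPM, against 15.8 ± 1.03 in PAR (adjusted p 0.013, and 0.06 without PAR replicate 3). FRC1 was at 17.0 ± 1.19 CPM and did not pass. Fdxr, which encodes the mitochondrial ferredoxin reductase, was at 14.4 ± 1.43 CPM in SRC3, 13.5 ± 0.517 in FRC1 and 12.98 ± 1.41 in PAR and passed in no comparison. Of the 11 death genes tested, FRC1 against PAR had 0 higher and 3 lower, and SRC3 against FRC1 had 1 higher and 5 lower. These were shares of 27.3 and 54.5%, against 28.3 and 33.5% of all tested genes.

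Of the 5 repair and detoxification genes, 1 was called in SRC3 against PAR, a share of 20% against 37.9% of all tested genes. That gene was Ephx1, a detoxifying epoxide hydrolase rather than a repair factor. It had 1.83, 2.78 and 3.27 CPM in SRC3, 2.27, 1.89 and 2.49 in FRC1 and 7.14, 7.198 and 5.40 in PAR. The PAR libraries all lay above the others, and SRC3 and FRC1 overlapped. Ephx1 was 2.51-fold lower in SRC3 (adjusted p 2.9e-05) and 2.96-fold lower in FRC1 (adjusted p 1.4e-05) than in PAR.

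Ddb2, a damage-sensing subunit of nucleotide excision repair, had 3.30, 3.16 and 3.725 CPM in SRC3, 5.08, 4.69 and 5.56 in FRC1 and 3.64, 3.22 and 4.26 in PAR. FRC1 lay above both other groups, and SRC3 overlapped PAR. SRC3 was below FRC1, with a log2 fold change of -0.59 (adjusted p 0.012, and 0.062 without FRC1 replicate 3). The call of FRC1 against PAR, at a log2 fold change of 0.46, held in 8 of 16 alternatives, with adjusted p between 0.041 and 0.18. Exons of Ddb2 overlap those of Acp2 on the opposite strand over 23.8% of their length, and Acp2 was at 35.04 CPM in SRC3, 32.6 in FRC1 and 35.1 in PAR, so the share of Acp2 reads in the Ddb2 count cannot be told apart.

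The other repair genes passed in no comparison. Polk, a translesion polymerase gene, was at 32.4 ± 2.25 CPM in SRC3, 32.6 ± 2.49 in FRC1 and 36.7 ± 3.85 in PAR. Xpc, which recognises damage in nucleotide excision repair, was at 19.6 ± 1.76, 21.4 ± 2.00 and 21.1 ± 1.07 CPM in these groups. Rrm2b, the p53-inducible subunit of ribonucleotide reductase, was at 10.6 ± 0.923, 10.6 ± 1.40 and 12.7 ± 0.730 CPM.

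Levels of different genes were compared per kilobase of exon. Mdm2 was the most abundant gene of the network on this scale, at 161 CPM per kb in SRC3, 194 in FRC1 and 200.3 in PAR, above 98.1, 98.6 and 98.7% of tested genes. Bax came next in every group, at 96.7, 97.6 and 104 CPM per kb. Trp53 was at 65.8 CPM per kb in SRC3, 62.2 in FRC1 and 65.2 in PAR. Ccng1 stood at 36.4 CPM per kb in SRC3, 50.1 in FRC1 and 78.3 in PAR, which placed it at rank 7, 5 and 4 among the 33 genes.

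The level of Mdm2 relative to Trp53, both per kilobase, was 2.53, 2.22 and 2.61 in SRC3, 3.06, 3.24 and 3.06 in FRC1 and 2.90, 2.91 and 3.42 in PAR. The SRC3 libraries had the 3 lowest ratios. With 3 libraries a group the exact two-sided permutation test cannot go below 0.1, and it gave 0.1 for SRC3 against PAR and for SRC3 against FRC1, and 1 for FRC1 against PAR.

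**Figure D4:**
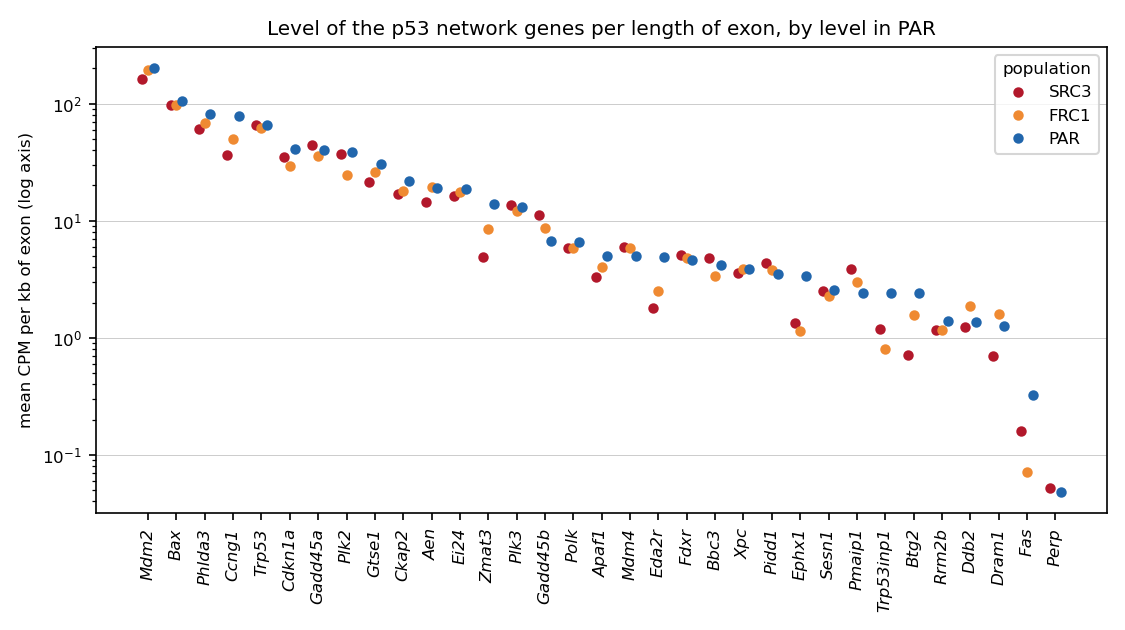
Mean level of each gene per kilobase of exon (CPM per kb, log axis) in SRC3, FRC1 and PAR; points are group means of 3 libraries, and Perp in FRC1, at 0, has no place on the log axis. Mdm2 and Bax are the highest in every group, and Ccng1 and Zmat3 are spread apart by group.

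Upstream of p53, Cdkn2a encodes ARF, which restrains Mdm2, as well as p16, and gene counts do not separate them. Cdkn2a had 0.293, 0.540 and 0.228 CPM in SRC3, 98.75, 79.2 and 74.05 in FRC1 and 156.5, 156.3 and 156.6 in PAR. SRC3 was near the limit of 3 counts, and FRC1 lay below PAR without overlap. The log2 fold change was -8.76 in SRC3 and -0.90 in FRC1 against PAR, with edgeR adjusted p of 4.9e-15 and 1.3e-06. Of the 30 regulators tested, Cdkn2a included, SRC3 against PAR had 5 higher and 3 lower, FRC1 against PAR had 3 higher and 4 lower, and SRC3 against FRC1 had 8 higher and 5 lower. The shares called were 26.7, 23.3 and 43.3%, against 37.9, 28.3 and 33.5% of all tested genes. Ppp1r13l, which encodes the p53 inhibitor iASPP, was higher in both SRC3 and FRC1 than in PAR, with log2 fold changes of 0.51 and 0.67. The p53 deacetylase gene Sirt1 and the acetyltransferase gene Kat5 were higher in SRC3 than in PAR (0.40 and 0.36) and than in FRC1 (0.44 and 0.36). The ubiquitin ligase gene Cul9 was higher in SRC3 than in FRC1 (0.44). The kinase gene Prkdc and the ubiquitin ligase gene Trim24 were lower in FRC1 than in PAR (-0.37 and -0.28).

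Of 47 further genes described as p53-responsive that could be tested, 8 were higher and 19 were lower in SRC3 against PAR, with a median log2 fold change of -0.15. FRC1 against PAR had 6 higher and 18 lower (median -0.16), and SRC3 against FRC1 had 9 higher and 11 lower (median -0.07). The shares called were 57.4, 51.1 and 42.6%, against 37.9, 28.3 and 33.5% of all tested genes. This list too was chosen with earlier results of these data known, so the shares only describe it. The list holds Rchy1, which is also among the regulators, and Bid, which is also in the Bcl2 and caspase list. In SRC3 against PAR the microtubule gene Psrc1 fell by 1.77, the antiproliferative gene Tob1 by 1.22 and the long noncoding RNA Trp53cor1 by 1.13 on the log2 scale. Among the falls in FRC1 against PAR, the phospholipid transfer gene Pltp fell by 1.30, the xylulose reductase gene Dcxr by 1.13 and the thiamine transporter gene Slc19a2 by 0.84. Some of these genes were low. Dcxr was at 0.831 ± 0.470 CPM in FRC1 and 1.79 ± 0.578 in PAR, and these groups overlapped. Pltp was at 1.49 ± 0.335 CPM in FRC1 and 3.67 ± 0.778 in PAR. Trp53cor1 was at 1.38 ± 0.237 CPM in SRC3 and 3.01 ± 1.12 in PAR. In SRC3 against FRC1, Pltp rose by 1.29 and the matrix gene Thbs1 fell by 0.89 on the log2 scale, and Psrc1 was 2.22-fold lower.

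Cell cycle genes that p53 represses through p21 and the DREAM complex were also read. Of 28 tested, SRC3 against PAR had 9 higher and 2 lower, FRC1 against PAR had 8 higher and 1 lower, and SRC3 against FRC1 had 6 higher and 4 lower. The shares called in either direction, 39.3, 32.1 and 35.7%, were near the 37.9, 28.3 and 33.5% of all tested genes. By direction, the shares differed from this background in both comparisons with PAR. In SRC3 against PAR, 32.1% were higher and 7.14% lower, against 17.8 and 20.2% of all tested genes. In FRC1 against PAR, 28.6% were higher and 3.57% lower, against 13.6 and 14.7%. In SRC3 against FRC1, 21.4% were higher, against 15.5% of all tested genes, and 14.3% were lower. The proliferation gene Mki67 was at 311.7 ± 49.2 CPM in SRC3, 273.5 ± 19.6 in FRC1 and 262.0 ± 15.8 in PAR and passed in no comparison. In SRC3 against PAR the log2 fold change was 0.58 for the transcription factor gene Mybl2, 0.44 for the replication helicase gene Mcm5, 0.43 for the replication clamp gene Pcna and 0.32 for E2f1. In FRC1 against PAR it was 0.33 for Birc5, 0.23 for Mybl2, 0.22 for Foxm1 and 0.21 for Aurka, mitotic genes or their regulators. In SRC3 against FRC1 it was 0.38 for Pcna, 0.35 for Mybl2, 0.28 for Mcm5 and -0.28 for Aurka.

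Of 24 tested genes of the Bcl2 family and the caspase pathway, SRC3 against PAR had 4 higher and 5 lower, FRC1 against PAR had 2 higher and 6 lower, and SRC3 against FRC1 had 3 higher and 2 lower. The shares called were 37.5, 33.3 and 20.8%, against 37.9, 28.3 and 33.5% of all tested genes. Bcl2l11, which encodes the BH3-only protein Bim, was lower in FRC1 than in PAR (log2 fold change -0.48) and higher in SRC3 than in FRC1 (0.76) and in PAR (0.28). Bid, another BH3-only gene, was lower in SRC3 (-0.50) and in FRC1 (-0.36) than in PAR. Cflar, an inhibitor of caspase-8 activation, was lower in SRC3 than in PAR (-0.36) and in FRC1 (-0.35). The survival gene Bcl2l2 was lower in SRC3 than in FRC1 (-0.32), the death effector gene Bok was higher in SRC3 than in PAR (0.37), and the mitophagy gene Bnip3l was lower in FRC1 than in PAR (-0.47).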

How the data were processed

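Polyadenylated RNA of 9 libraries was sequenced as stranded libraries with single reads of 50 cycles, per the labels' protocols. The authors deposited whole-number read counts per gene, not normalized. Tools listed in the submitters' processing notes were HTSeq 0.9.1, HISAT2 2.1.0 and DESeq2, with the build GRCm38, and the strand setting of the counting is not given in the sources used here. The 5 summary lines that name no gene stayed out of library sizes and tests. Reads in no gene came to 5.923 to 7.917% and ambiguous reads to 1.175 to 1.214%, both of the sum of gene, no-gene and ambiguous counts. Alignments that were not unique stayed out of that sum. Of all counts, summary lines included, they made up 47.9 to 48.6% in PAR, 49.5 to 50.3% in FRC1 and 51.1 to 51.9% in SRC3. Any part of this difference in the results was not tested.

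Groups came from the sample titles. All 33 members were found by symbol and matched by identifier to GENCODE M21 for locations and exon lengths. The members and the other gene lists were chosen with earlier results of these data known. Genes were filtered with filterByExpr of edgeR 4.0.16 (a count of 10, 15 in total, scaled to depth) in R 4.3.3, scaled with TMM and fitted in a single model of all 9 libraries (6 residual degrees of freedom). Pairs of groups were compared with the two-sided quasi-likelihood test (glmQLFit with robust dispersion, glmQLFTest). P-values were adjusted by Benjamini-Hochberg over all 12540 tested genes, with a threshold of 0.05. The common biological coefficient of variation was 0.0535. Replicate libraries differed by more than sampling noise (chi-square per degree of freedom 1.87 to 7.97). Limits set by 3 counts cover counting error only.

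Per-library values are given for the 12 called members with the largest log2 fold change in any comparison and for Trp53, Mdm2, Cdkn1a and Bax, and from each other list up to 4 called genes per comparison whose higher group averaged 1 CPM or more are named. Some genes that this rule would name are not reported here. Locations are on GRCm38. Counts of 12540 genes were simulated for SRC3 against PAR with 200 genes changed, 50 at each fold. The test recovered 56% of genes changed 1.25-fold, 80% at 1.5-fold, 92% at 2-fold and 96% at 4-fold. Far more genes were called in the data (37.9%), so these rates need not hold there. Alternatives were other size factors, no filter or a filter of 1 CPM, DESeq2 1.42.0, a replicate block and leaving out each library.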

Additional observations from a re-analysis of the deposited data

How the results depend on the processing

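Leaving out single libraries gave 16 to 20 called members in SRC3 against PAR, 11 to 15 in FRC1 against PAR and 13 to 17 in SRC3 against FRC1. Over all genes, these ranges were 3845 to 4924, 2327 to 3987 and 3371 to 4281, and the lowest count in FRC1 against PAR came without FRC1 replicate 3. Some log2 fold changes, none of them called in the report, changed sign on leaving out single libraries. In SRC3 against PAR they ranged from -0.0341 to 0.0581 for Trp53, -0.195 to 0.0783 for Sesn1 and -0.159 to 0.0059 for Plk2. In FRC1 against PAR they ranged from -0.0879 to 0.0087 for Mdm2, -0.0359 to 0.0675 for Aen, -0.0425 to 0.0928 for Xpc and -0.0301 to 0.117 for Fdxr. In SRC3 against FRC1 they ranged from -0.0176 to 0.0884 for Mdm4, -0.0169 to 0.247 for Sesn1, -0.0277 to 0.0140 for Bax, -0.0692 to 0.0527 for Polk and -0.0917 to 0.0817 for Rrm2b. Of these, Plk2 passed at its lowest value. The cause was not tested. Calls of Polk in SRC3 against PAR were gained without PAR replicate 1 (adjusted p 0.0486) or SRC3 replicate 3 (0.0484), and that of Gadd45a in FRC1 against PAR without PAR replicate 3 (0.0485). With the replicate number as a block, 19, 15 and 17 members and 4798, 3560 and 4221 genes were called, and among the members the block changed only the call of Trp53inp1 in SRC3 against FRC1. In SRC3 against PAR, deviations of libraries of the same number correlated at 0.05 to 0.12 and those of different numbers at -0.09 to 0.04. In FRC1 against PAR these ranges were 0.02 to 0.09 and -0.06 to 0.02. In SRC3 against FRC1 they were -0.07 to 0.03 and -0.07 to 0.12. Libraries of the same number thus did not deviate together in every pair, and the numbers were not taken as pairs.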
